A study of Mus musculus with 2 samples.

Results

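Protein folding genes were compared between 2 pools of RNA from the cerebral cortex of newborn mice. The set holds the molecular chaperones of the HSP90, HSP70, HSP110 and small heat shock protein families, the J proteins, the cytosolic chaperonin TRiC with its partner prefoldin, the mitochondrial chaperonin, and the chaperones, folding enzymes and transcription factors of the endoplasmic reticulum (ER) and its unfolded protein response. Members were picked by a rule on gene symbols, from probe sets assigned to exactly 1 gene. The rule itself uses no measured value. This gave 94 genes of 18193 named on the array, read by 227 probe sets. Hsf1 and Hsp90ab1 had no probe set of this kind and were not analysed here.

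Animals of the double knockout pool were MRTF-A-/-;MRTF-BF/F;GFAP-Cre and those of the control pool MRTFA-/-;MRTF-BFlox/Flox. Both pools were thus labelled null for Mrtfa and carried floxed Mrtfb, and the Cre transgene was the only difference between the genotype labels. By the transgene's name Cre was driven by a GFAP promoter, and cells in which Cre was not active keep Mrtfb. Which cells of the cortex these were was not analysed here. Each pool combined cortical RNA of 3 animals at postnatal day 0 (the description of the double knockout sample gives day 1) and was read on 1 Affymetrix array. If the pools did differ in age by that day, age and genotype cannot be told apart here. There is therefore no replicate, no test and no p-value, and differences between animals cannot be seen. MRTF-A and MRTF-B are coactivators that carry the state of the actin cytoskeleton to the transcription factor SRF.

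Many chaperones bind unfolded protein chains and release them in cycles driven by ATP. HSP70 proteins are started on a client by J proteins and pass some clients on to HSP90. TRiC is a barrel of related subunits that encloses newly made actin and tubulin, which prefoldin delivers to it. In the ER, the HSP70 member BiP and the lectins calreticulin and calnexin hold new secreted and membrane proteins, and when unfolded protein builds up, the factors XBP1, ATF4 and ATF6 raise the amount of these chaperones. Newborn cortical neurons make large amounts of tubulin, actin and membrane protein, and all of these systems are used there.

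Several features of the pools go with the values below. Mrtfb, the floxed gene, read 2482 in the double knockout pool and 3359 in the control pool, a difference of -0.44 on its brightest probe set. Mrtfa read 262.4 in the double knockout pool and 601.6 in the control pool, a difference of -1.20. Both signals are above the floor of 178.6, the median signal of both arrays, under which a signal was not ranked, although both pools are labelled null for it. Where its probe set lies relative to the deleted sequence was not analysed here, so these values do not check that label. Neuron markers, which do not tell cortex from other brain regions, summed to 49317 in the double knockout pool and 47984 in the control pool over 5 genes. Oligodendrocyte and striatum markers were lower in 5 of 5 and 5 of 5 cases, with medians of -0.54 and -0.39 and summed signals of 10487 and 4661 in the double knockout pool, against 14283 and 6015 in the control pool. Meninges and microglia markers were higher in 9 of 9 and 5 of 6 cases, with medians of 0.23 and 0.30 and sums of 9646 and 5832 in the double knockout pool, against 7456 and 4982 in the control pool. Astrocyte and radial glia markers had a median of 0.03 with Gfap at 0.59, and endothelial markers 0.11 over 5 genes. Choroid plexus and ependyma markers had a median of -0.14 over 4, with 1 higher and 3 lower. The higher one, Ttr, was bright, at 12740 in the double knockout pool and 12406 in the control pool. Of the muscle markers only Ckm was measured, at -0.51, and no red blood cell marker reached the floor. The part of these cells in the folding gene values was not tested, and in pooled tissue fewer cells of a type and less RNA per cell cannot be told apart. The 3′ to 5′ signal ratio of the control probe sets was 1.35 in the double knockout pool and 1.41 in the control pool for beta-actin, and 0.728 and 0.719 in the same order for Gapdh.

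The folding genes were among the brighter genes on the arrays and differed little between the pools. Signals are MAS5 probe set intensities on a linear scale, printed as deposited. Differences are log2 values, double knockout minus control, after centring, and each gene is represented by its brightest probe set. On at least 1 array 79 of the 94 genes reached the floor, and 76 did so on both. Over those 76 the signals ran from 195.1 to 10618 with a median of 1570 in the double knockout pool, and from 207.1 to 11211 with a median of 1534 in the control pool. In mean signal, 53 of the 76 (69.7%) stood above the median gene.

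No member differed by 1.5-fold in either direction, where the share of all 11629 measured genes was 0.37% higher and 0.774% lower. At a smaller threshold of 0.32 log2, 1 of the 79 measured members was higher, against 3.44% of all measured genes, and 1 was lower, against 5.54%. The higher one was Dnajc13 and the lower one Hspb3. Of the 48 members with a mean signal of at least 1000, 0 passed 0.32 log2, against 1.42% higher and 1.33% lower among the 4511 genes that bright. Differences of 2-fold were rarer still, with 0 members, 0.0344% of all measured genes higher (0.0222% of the bright ones) and 0.043% lower. Of the 76 members on both arrays 47 were higher and 29 lower, against 54.3% higher and 45.7% lower among all 11014 such genes, and the members' median was 0.02 log2, as was that of all genes. After quantile normalization, and likewise after loess centring, 38 members were higher and 38 lower.

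**Figure D1:**
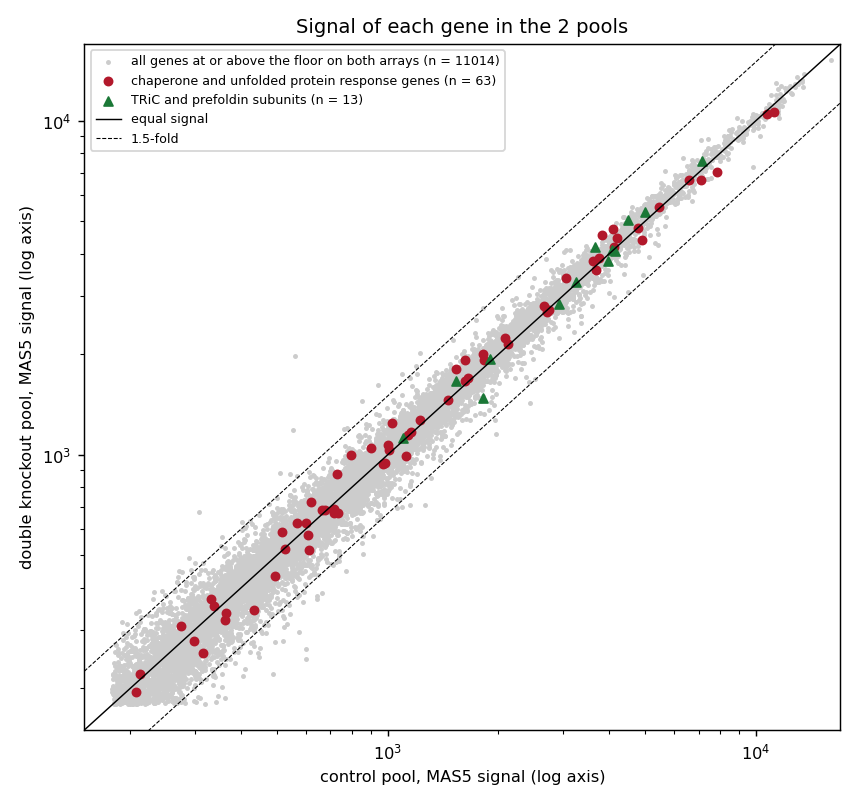
Signal of each gene's brightest probe set in the double knockout pool (vertical) and the control pool (horizontal), both on log axes, for the 11014 genes that reached the floor on each array (grey), 63 chaperone and unfolded protein response genes (red circles) and 13 TRiC and prefoldin subunits (green triangles). All coloured points lie between the dashed 1.5-fold lines.

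The only error that can be measured here is the disagreement between probe sets of 1 gene, which may read different transcripts and is blind to variation among animals. Over 4858 genes with several probe sets this pooled SD was 0.181 log2, and over the 43 such members it was 0.149. The differences of the 76 members had an SD of 0.139, against 0.187 for all genes. The members had a median mean signal of 1616, against 792 for all genes, and these SDs were not matched for brightness. Past 0.181 log2 lay 10 members on the higher side, a background of 12.4% of genes, and 5 on the lower side, a background of 13.7%. Of the 43 members with several probe sets, 12 were higher on all of them, 7 lower on all of them, and 24 had probe sets in both directions. The other 33 members had 1 probe set on both arrays and so no measured error.

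**Figure D2:**
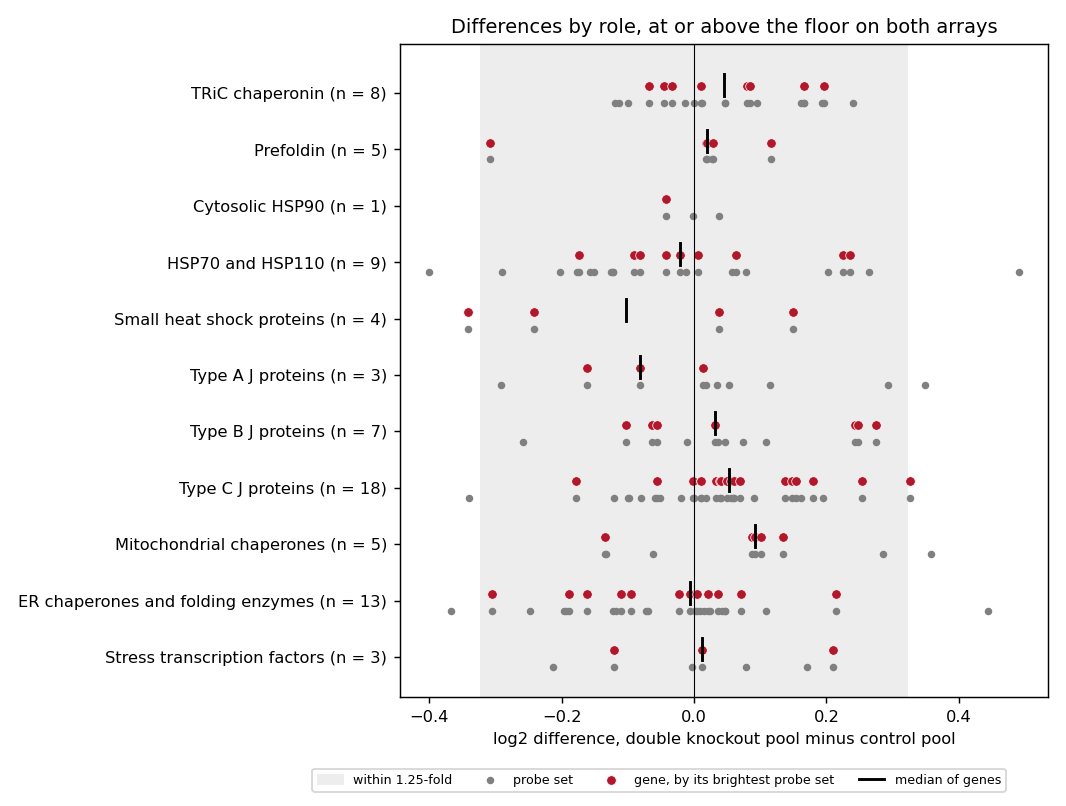
Log2 difference (double knockout minus control, horizontal) by role, for the 76 genes that reached the floor on each array. Red points are genes by their brightest probe set, and grey points are their probe sets that reached the floor on each array. Bars are medians of groups of at least 3 genes, and the shaded band is 0.32 log2 either way. Dnajc13, at 0.33, and Hspb3, at -0.34, are the only red points outside the band.

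TRiC subunits were bright in both pools and lay close together. Of the 8 measured subunits 5 were higher and 3 lower in the double knockout pool, with a median of 0.04, and the split was 4 and 4 after quantile normalization or loess centring and 7 and 1 for the mean over probe sets. The summed signal of their brightest probe sets was 36982 in the double knockout pool and 35437 in the control pool. Cct5 stood farthest out, at 4196 in the double knockout pool and 3652 in the control pool, a difference of 0.20 on its only probe set. Cct2 read 5324 in the double knockout pool and 5009 in the control pool, and all its probe sets were higher, averaging 0.14 ± 0.09 (SD) over 3 probe sets. Cct6a was the other subunit with every probe set higher, at 0.06 ± 0.02 (SD, 2 probe sets).

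The other subunits had no common direction. Cct3 was at 5064 in the double knockout pool and 4502 in the control pool on its brightest probe set, a difference of 0.17, but averaged 0.02 ± 0.10 (SD) over 5 probe sets. Cct4 differed by -0.07 on its brightest probe set and averaged 0.01 ± 0.14 (SD) over 6 probe sets, 3 of which were higher. Cct7 differed by -0.03, averaging 0.07 ± 0.14 (SD) over 2 probe sets, and Cct8 by -0.04 on its only probe set above the floor. Tcp1, the subunit that gave the complex its older name, read 4118 in the double knockout pool and 4078 in the control pool. The 21 TRiC probe sets together ran from -0.12 to 0.24, with 13 higher and 8 lower.

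Prefoldin, the complex that hands actin and tubulin chains to TRiC, was close to equal apart from Pfdn2 among its 5 members in the set. Pfdn2 read 1476 in the double knockout pool and 1823 in the control pool, a difference of -0.31 on its only probe set. A further probe set assigned to both Pfdn2 and its neighbour Klhdc9 read 1111 in the double knockout pool and 996.5 in the control pool, a difference of 0.15 in the opposite direction, so the lower Pfdn2 signal rests on 1 probe set. Pfdn4 was at 0.12, Pfdn6 at 0.03 and Pfdn1 at 0.02. Pfdn5, which is also known as a Myc-binding protein, averaged 0.02 ± 0.01 (SD) over 2 probe sets. The count of 4 higher and 1 lower became 2 higher and 3 lower after quantile normalization or loess centring, where Pfdn2 differed by -0.34 and was the only member lower past 0.32 log2.

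Genes that work with TRiC and prefoldin gave a similar picture. Of 11 measured partners, which are the prefoldin subunit Vbp1, prefoldin-like proteins, phosducin-like regulators and tubulin folding cofactors, 8 were higher and 3 lower (median 0.05). The count was 7 and 4 after quantile normalization or loess centring. It was 6 and 5 for the mean over probe sets that reached the floor on at least 1 array. Vbp1, which the symbol rule for members does not take in, differed by 0.07. Uri1, a prefoldin-like protein, read 1143 in the double knockout pool and 1432 in the control pool, a difference of -0.33, averaging -0.20 ± 0.14 (SD) over 3 probe sets. Tbcd, a cofactor that handles beta-tubulin, was higher by 0.20, and Pdcl, a phosducin-like TRiC regulator, by 0.17. Among the clients themselves, all 4 measured actin genes were lower, between -0.25 for Acta1 and -0.17 for Actb, while 7 of 9 tubulin genes were higher and 2 lower, between -0.15 and 0.12. After quantile normalization or loess centring the actin count was the same, and 6 tubulin genes were higher and 3 lower. Acta2 and Actg1 differed by -0.24 and -0.18. The brightest actin probe sets all carry a suffix that marks possible reading of several transcripts, and Actb averaged -0.08 ± 0.12 (SD) over 2 probe sets. Without suffixed probe sets only Actb was left, at 0.0024, and 4 tubulin genes were higher and 4 lower. At the 25th percentile floor 1 further actin gene came in, at 0.31.

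**Figure D3:**
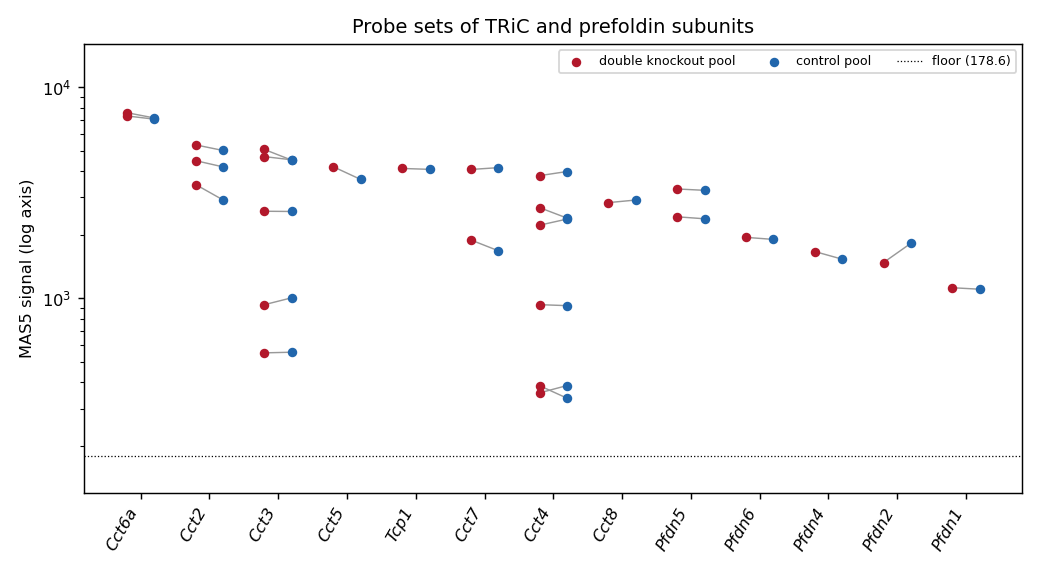
MAS5 signal (log axis) of every probe set of TRiC subunits (Cct genes and Tcp1) and prefoldin subunits (Pfdn genes) that reached the floor, in the double knockout pool (red, left of each pair) and the control pool (blue, right), with lines joining 1 probe set. Most lines are close to level; that of Pfdn2 is at 1476 in the double knockout pool and 1823 in the control pool.

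Hsp90aa1, the inducible cytosolic HSP90, was bright and close to equal in both pools. Its 3 probe sets averaged -0.0023 ± 0.04 (SD), and the brightest read 10461 in the double knockout pool and 10748 in the control pool. In a list of cytosolic co-chaperones of HSP90 and HSP70 that also holds the heat shock factor Hsf2 and the factor-binding protein Hsbp1, 16 of 22 measured genes were higher and 6 lower (median 0.04), against 54.3% higher among all genes on both arrays. The count was 14 and 8 after quantile normalization, after loess centring and for the mean over probe sets. Past 0.32 log2 were 0 of them, against 3.44% of all measured genes higher and 5.54% lower. Ahsa2, related to the HSP90 activator Aha1, and Hspbp1, a nucleotide exchange factor of HSP70, were both higher by 0.22, and Bag5, another exchange factor, by 0.16.

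The HSP70 and HSP110 genes went both ways, with 4 of 9 higher, 5 lower and a median of -0.02, and with 5 higher and 4 lower after quantile normalization or for the mean over probe sets. Hspa8, the constitutive HSC70 that uncoats clathrin vesicles in neurons, read 10618 in the double knockout pool and 11211 in the control pool. Its probe sets were all lower, averaging -0.17 ± 0.17 (SD) over 4 probe sets, the dim one at -0.40 and the 3 bright ones between -0.20 and -0.01. Hspa4l, an HSP110-type exchange factor, gave the most even result of the members with 5 or more probe sets. It read 995.3 in the double knockout pool and 1120 in the control pool on the brightest, and all 5 lay between -0.18 and -0.12, averaging -0.15 ± 0.03 (SD) over 5 probe sets. Its relative Hsph1 averaged -0.10 ± 0.08 (SD) over 2 probe sets.

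Hspa4, the third HSP110-type gene, had no common direction. Its probe sets read 2686, 1574 and 1489 in the double knockout pool, against 2718, 1920 and 1057 in the control pool, which gave differences of -0.02, -0.29 and 0.49. The probe sets of this gene were farther apart than those of any other member. Their mean was 0.06 ± 0.40 (SD, 3 probe sets).

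Hspa14 lay in the other direction, at 724.8 in the double knockout pool and 618.6 in the control pool, averaging 0.21 ± 0.02 (SD) over 2 probe sets. It forms the ribosome-associated complex of mammals together with the J protein Dnajc2, which binds chains as they leave the ribosome. Dnajc2 read 874.3 in the double knockout pool and 731.2 in the control pool, and averaged 0.14 ± 0.17 (SD) over 2 probe sets. Both partners were thus higher on every probe set above the floor, although 1 of the 2 Dnajc2 probe sets was near 0 at 0.02. Hspa13, an HSP70 relative of microsomes, differed by 0.24 on the brightest probe set but averaged 0.06 ± 0.18 (SD) over 3 probe sets. Hspa12a averaged 0.13 ± 0.12 (SD) over 3 probe sets and Hspa2, an HSP70 abundant in germ cells, differed by 0.0062.

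The classical stress-induced HSP70 genes were near or under the floor in both pools. Hspa1b read 195.1 in the double knockout pool and 207.1 in the control pool on its brightest probe set, and Hspa1a 138.6 and 137.9 in the same order. These genes are near-identical copies, so their probe sets may read either.

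Small heat shock proteins, which hold aggregating proteins without using ATP, were dim. Of 8 genes 4 reached the floor on each array, 2 higher and 2 lower, with a median of -0.10. Hspb3, a muscle-type member also found in motor nerves, read 343.7 in the double knockout pool and 434.1 in the control pool, a difference of -0.34 on its only probe set, and was not past 0.32 log2 after quantile normalization or loess centring. Hspb1, the HSP27 of stressed cells and of actin-rich cells, read 518.4 in the double knockout pool and 611.3 in the control pool, a difference of -0.24. Hspb6 was higher by 0.15, and Hspb11, an intraflagellar transport protein by function, by 0.04.

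A further pair reached the floor on 1 array only and has bounds alone. Hspb8, the partner of the co-chaperone BAG3 in selective autophagy, was at least 1.04-fold higher in the double knockout pool, and Hspb2 at least 1.02-fold lower. Bag3 itself, chosen after its values were seen, differed by -0.11.

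**Figure D4:**
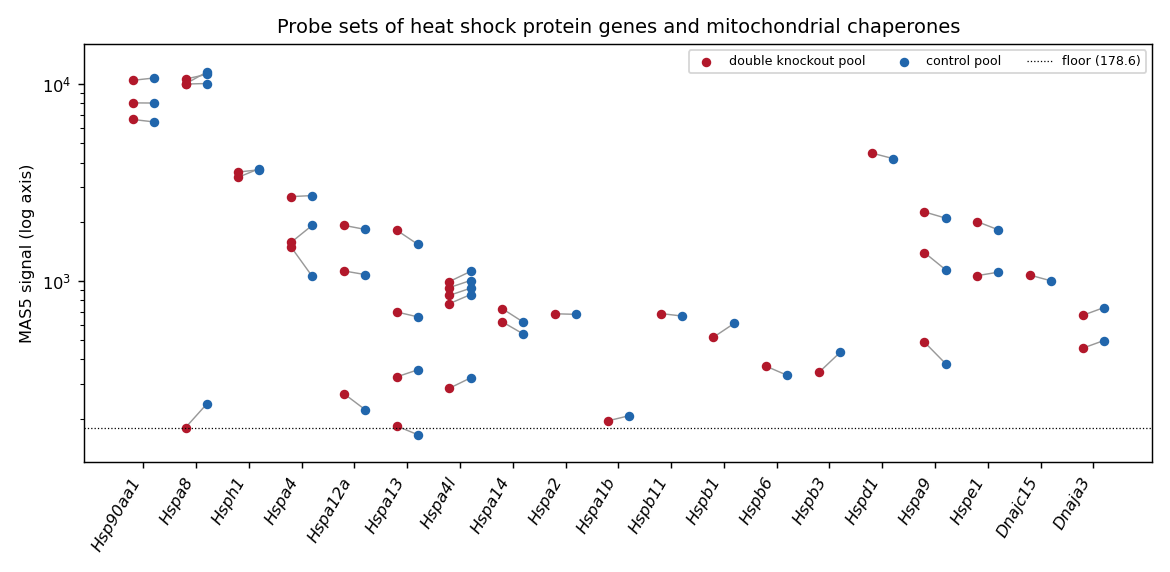
MAS5 signal (log axis) of every probe set at or above the floor on at least 1 array, for the HSP90, HSP70, HSP110, small heat shock and mitochondrial chaperone genes measured on both arrays, in the double knockout pool (red, left) and the control pool (blue, right), with lines joining 1 probe set. All 5 lines of Hspa4l are lower at the double knockout end, those of Hspa9 and Hspa14 are higher there, and those of Hspa4 go both ways.

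J proteins of type A, the closest relatives of bacterial DnaJ, showed how far 1 gene's probe sets can diverge. Dnaja1, the farnesylated cytosolic J protein, read 7053 in the double knockout pool and 7865 in the control pool on its brightest probe set, a difference of -0.16, while the other ones were higher and all 3 averaged 0.0020 ± 0.14 (SD). Dnaja4 differed by -0.08 on its brightest probe set and by 0.29 and 0.35 on the other ones, and all 3 averaged 0.19 ± 0.23 (SD). Dnaja2 differed by 0.01, averaging -0.06 ± 0.16 (SD) over 4 probe sets. Their count of 1 higher and 2 lower became 0 higher and 3 lower after quantile normalization or loess centring, and 2 higher and 1 lower for the mean over probe sets.

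J proteins of type B were higher in 4 of 7 cases, or in 3 for the mean over probe sets, and included 3 genes that were higher by about the same amount. Dnajb1, the stress-inducible HSP40 that starts HSP70 on disaggregation, read 1248 in the double knockout pool and 1029 in the control pool, a difference of 0.28, averaging 0.16 ± 0.17 (SD) over 2 probe sets. Dnajb6, a suppressor of polyglutamine aggregation, read 4545 in the double knockout pool and 3818 in the control pool, a difference of 0.25, averaging 0.10 ± 0.13 (SD) over 3 probe sets. Dnajb4, a near relative of Dnajb1, read 1931 in the double knockout pool and 1626 in the control pool, a difference of 0.24, averaging 0.18 ± 0.09 (SD) over 2 probe sets. For these genes the dimmer probe sets gave smaller values than the brightest one.

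The other measured type B genes were close to equal. Dnajb5 averaged -0.06 ± 0.17 (SD) over 3 probe sets. Dnajb12 and Dnajb14, ER membrane J proteins that help degrade misfolded membrane proteins, were at -0.10 and -0.06. Dnajb2, a neuronal J protein that sends clients to the proteasome, was at -0.06.

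Type C J proteins share only the J domain and serve very different processes. Of 18 on both arrays 15 were higher and 3 lower (median 0.05), against 54.3% higher among all genes on both arrays. After quantile normalization 12 were higher, and 13 after loess centring or for the mean over probe sets. Of their 32 probe sets on both arrays 20 were higher and 12 lower. Dnajc13, known as RME-8, which sorts cargo on endosomes, read 1003 in the double knockout pool and 797.7 in the control pool, a difference of 0.33 on its only probe set above the floor, and after loess centring it no longer passed 0.32 log2. Dnajc17, a nuclear J protein, was higher by 0.18, and Dnajc4 differed by -0.18, each on 1 probe set.

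The 2 brightest type C genes act at the synapse. Dnajc6, the neuronal auxilin that recruits HSC70 to clathrin coats, read 4795 in the double knockout pool and 4789 in the control pool, averaging -0.03 ± 0.06 (SD) over 3 probe sets. Dnajc5, the cysteine string protein of synaptic vesicles, read 3875 in the double knockout pool and 3762 in the control pool, averaging 0.03 ± 0.10 (SD) over 5 probe sets. Neither differed by more than its probe set spread. Dnajc28, under the floor in the control pool, was at least 1.08-fold higher. On their brightest probe sets the other 12 type C genes on both arrays lay between -0.06 and 0.15. Within that range Dnajc27 depended on the probe set, averaging -0.16 ± 0.25 (SD) over 2 probe sets.

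Mitochondrial chaperones were higher in 4 of 5 cases, with a median of 0.09, and 4 were higher and 1 lower also after quantile normalization and loess centring. Hspa9, mortalin, the HSP70 that pulls proteins into mitochondria, read 2246, 1396 and 489.8 on its probe sets above the floor in the double knockout pool, against 2089, 1142 and 381.1 in the control pool. Its average of 0.25 ± 0.13 (SD) was the largest among members with at least 3 probe sets. Dnaja3, the mitochondrial J protein Tid1, was the lower one, averaging -0.13 ± 0.0011 (SD) over 2 probe sets. Dnajc15 was at 0.09.

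Hspd1 (HSP60) and Hspe1 (HSP10) form the chaperonin of the mitochondrial matrix. Hspd1 read 4470 in the double knockout pool and 4193 in the control pool, a difference of 0.09 on its only probe set. Hspe1 read 2004 in the double knockout pool and 1821 in the control pool on its brightest probe set, averaging 0.04 ± 0.14 (SD) over 2 probe sets. Of 6 mitochondrial partners outside the set 5 were higher and 1 lower (median 0.09), led by the protease Lonp1 at 0.20, the exchange factor Grpel1 at 0.14 and the unfoldase subunit Clpx at 0.10.

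Promoters were searched for the elements through which folding genes are known to be induced; a match is a description, not a site in use. RefSeq promoter windows of GRCm38.p6, from 250 bases before to 50 after the start site, were matched for 79 of the 94 members. The heat shock element, bound by HSF1, was searched on both strands as GAA, 2 bases of any kind, TTC, 2 bases of any kind and GAA, which covers its reverse complement. It was found in 0.603% of all 32851 windows, or 0.662% of all 27025 genes with a window. Among the 79 members it was in 4, Hspd1, Hspe1, Dnajb6 and Hsph1. Hspd1 and Hspe1 lie head to head on chromosome 1 with windows that overlap by 285 bases, so both carry the same overlapping elements. The stretches below are shown because these genes have the element before their start; they run 5′ to 3′ on the gene's strand, with the matched bases in capitals. Hspe1 is at chr1:55088034-55088101 (+) and Dnajb6 at chr5:29735827-29735889 (+).
Hspe1: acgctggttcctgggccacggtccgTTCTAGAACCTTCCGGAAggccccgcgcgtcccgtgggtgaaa
Dnajb6: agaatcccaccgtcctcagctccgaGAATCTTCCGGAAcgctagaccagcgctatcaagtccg

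The 4 members with this element differed by 0.09 for Hspd1, 0.13 for Hspe1, 0.25 for Dnajb6 and -0.04 for Hsph1 on their brightest probe sets, so 3 were higher and 1 lower. The match in Hsph1 lies after its start site. The ATF4 element, searched as TGATG, any base, AA and any base, was in 3.95% of windows, 4.50% of genes and 1 member, Hspa14. The SRF CArG box, the element of SRF itself, was found in 1.63% of windows, 1.81% of genes and 1 of the 79 members. That member was Dnajc16, an ER-associated J protein by its known location. On its brightest probe set it read 306.6 in the double knockout pool and 274.9 in the control pool, a difference of 0.15. Its other probe set read 250.6 in the double knockout pool and 173.7, under the floor, in the control pool. That is a difference of at least 0.48. The Dnajc16 site is shown because SRF is the partner of the factors named in the genotypes, and lies at chr4:141790766-141790815 (-).
Dnajc16: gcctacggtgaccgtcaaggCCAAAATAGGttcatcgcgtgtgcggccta

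In the ER, the folding genes were centred on 0, with 6 of 13 higher, 7 lower and a median of -0.0065. After quantile normalization or loess centring 4 were higher and 9 lower. For the mean over probe sets that reached the floor on each array 3 were higher and 10 lower. With probe sets that reached it on 1 array included in the mean, 4 were higher and 9 lower. The ER stress element, bound by ATF6 and XBP1, was searched on both strands as CCAAT, 9 bases of any kind and CCACG. It was in 0.119% of all windows, 0.137% of all genes with a window and 6 of the 79 members. Every one of these members was an ER folding gene. The sites are shown because the unfolded protein response is known to raise these genes as a set. Hsp90b1 has 2 of them, in opposite orientation, and its site nearer the start is given. In order the stretches are chr2:34772005-34772063 (+), chr10:86705513-86705571 (-), chr8:84847055-84847113 (-), chr11:50325780-50325838 (-), chr12:17266471-17266529 (+) and chr14:118937807-118937865 (+), with the element in capitals.
Hspa5: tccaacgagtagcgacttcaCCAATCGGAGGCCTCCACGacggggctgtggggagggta
Hsp90b1: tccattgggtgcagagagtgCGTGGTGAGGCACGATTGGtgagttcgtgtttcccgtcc
Calr: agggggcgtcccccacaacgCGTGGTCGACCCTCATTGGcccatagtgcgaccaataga
Canx: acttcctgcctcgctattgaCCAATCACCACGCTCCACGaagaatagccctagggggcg
Pdia6: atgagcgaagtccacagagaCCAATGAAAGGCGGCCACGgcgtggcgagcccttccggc
Dnajc3: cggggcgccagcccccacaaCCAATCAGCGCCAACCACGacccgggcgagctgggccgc

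The 6 genes with this element did not move as a set, with 4 higher, 2 lower and a median of 0.02, against 2 higher, 5 lower and a median of -0.02 for the 7 ER folding genes without a match. For the mean over probe sets that reached the floor on each array this order turned. The genes with the element then had 2 higher, 4 lower and a median of -0.10, against 1 higher, 6 lower and a median of -0.03 for those without. Hspa5, which encodes BiP, the main HSP70 of the ER, read 3810, 3090 and 1358 on its probe sets in the double knockout pool, against 3619, 3235 and 1552 in the control pool. The brightest was higher by 0.07 and the mean was -0.07 ± 0.13 (SD, 3 probe sets), so no difference in BiP stood out from the probe set spread. Hsp90b1, GRP94, the HSP90 of the ER, read 4415 in the double knockout pool and 4926 in the control pool, averaging -0.14 ± 0.03 (SD) over 2 probe sets. Calr, the calcium-binding lectin calreticulin, read 6675 in the double knockout pool and 7111 in the control pool, and was lower on all probe sets, averaging -0.14 ± 0.05 (SD) over 3 probe sets.

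Its membrane-bound partner calnexin was close to equal. Canx read 6641 in the double knockout pool and 6604 in the control pool, averaging 0.01 ± 0.01 (SD) over 3 probe sets. Dnajc3, a J protein that also restrains the kinase PERK, read 1050 in the double knockout pool and 902.7 in the control pool on its brightest probe set, but its 5 probe sets ran from -0.25 to 0.44 and averaged 0.09 ± 0.26 (SD). Pdia6, a disulfide isomerase, differed by 0.04 on its brightest probe set and averaged -0.17 ± 0.29 (SD) over 2 probe sets.

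Of the ER folding genes without a matched element, Sdf2l1 and Pdia4 were lowest. Sdf2l1, a cofactor of ER J proteins and a sensitive responder to ER stress, read 256.0 in the double knockout pool and 315.5 in the control pool, a difference of -0.31 on its only probe set. Pdia4, a disulfide isomerase, read 434.2 in the double knockout pool and 493.6 in the control pool, a difference of -0.19 on 1 probe set above the floor. Pdia3, the isomerase that works with calreticulin and calnexin, averaged -0.03 ± 0.07 (SD) over 2 probe sets. The ER J proteins Dnajb9, Dnajb11, Dnajc1 and Dnajc10 differed by -0.02, -0.0065, -0.11 and 0.0008 on their brightest probe sets.

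The transcription factors of the stress responses showed no common direction, with 2 higher and 1 lower, and 1 higher and 2 lower after quantile normalization or loess centring. Xbp1, the ER stress factor made active by splicing of its RNA, read 4761, 3555 and 2120 on its brighter probe sets in the double knockout pool, against 4107, 3358 and 1879 in the control pool, and 331.8 and 383.5 on the dimmest in the same order. These were differences of 0.21, 0.08, 0.17 and -0.21, averaging 0.06 ± 0.19 (SD) over 4 probe sets. The signal does not separate spliced from unspliced Xbp1. Atf4, whose protein level is set mainly by translation, averaged 0.0043 ± 0.01 (SD) over 2 probe sets. Ddit3, the stress-induced factor CHOP, was dim, at 335.5 in the double knockout pool and 363.9 in the control pool, a difference of -0.12.

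Other genes of the response gave the same mixed picture. Among 32 measured sensors, factors and ER quality control genes outside the set 31 were on both arrays, with 20 higher and 11 lower and a median of 0.04, which turned to -0.05, with 13 higher and 18 lower, for the mean over probe sets. Past 0.32 log2 was 1 of them, Edem1, an XBP1-induced lectin-like protein that removes misfolded glycoproteins, at 747.5 in the double knockout pool and 560.0 in the control pool, a difference of 0.41 on 1 probe set. Edem3 was higher by 0.20, averaging 0.18 ± 0.03 (SD) over 2 probe sets. Derl2, a channel component of the same degradation route, differed by 0.30 on the brightest probe set, averaging 0.04 ± 0.36 (SD) over 2 probe sets.

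**Figure D5:**
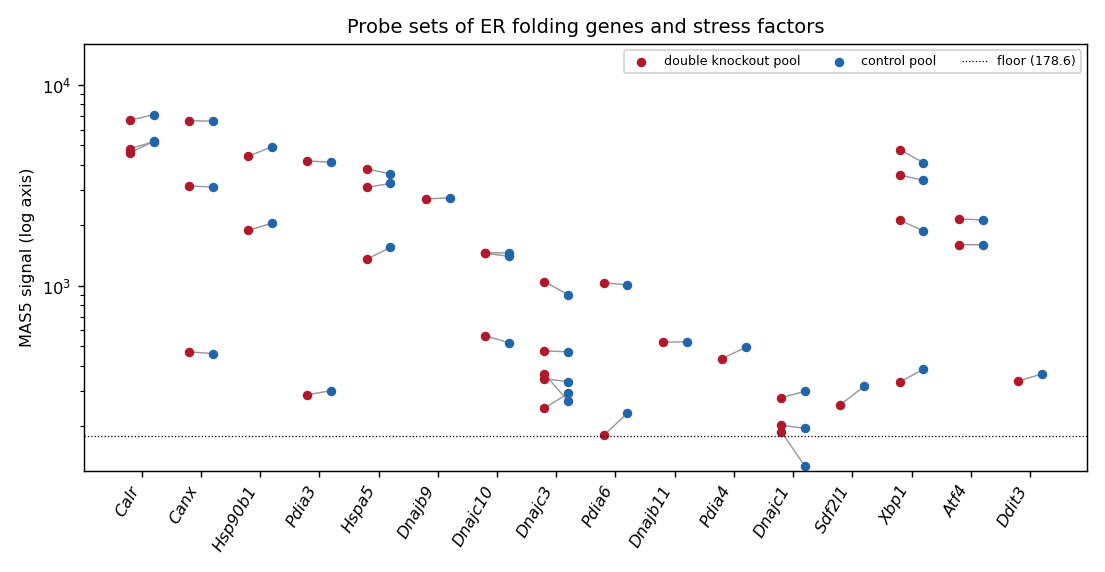
MAS5 signal (log axis) of every probe set at or above the floor on at least 1 array, for 13 ER folding genes and 3 stress factors, in the double knockout pool (red, left) and the control pool (blue, right), with lines joining 1 probe set. Calr and Hsp90b1 are lower at the double knockout end on all probe sets, Canx is close to level, and the lines of Dnajc3 and Xbp1 run in both directions.

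The 15 members under the floor on both arrays had probe set signals of at most 154.9 in the double knockout pool and 165.0 in the control pool. They were Cct6b, Cct8l1, Dnajb3, Dnajb7, Dnajb8, Dnajb13, Dnajc5b, Dnajc5g, Dnajc22, Dnajc24, Hspa12b, Hspa1a, Hspa1l, Hspb7 and Hspb9. Cct6b, Dnajb3, Dnajb8, Dnajb13 and Hspa1l are known mainly from testis, and Hspb7 from heart and skeletal muscle. A signal under the floor gives no order between the pools.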

How the data were processed

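Signals of 45101 probe sets on 2 arrays were used. They are intensities that the authors computed with MAS5, per the submitters' processing notes, from pools of 3 animals and 6 ug of RNA. Neither MAS5 version nor scaling target is given in the sources used here; the 2% trimmed mean was 500 on both arrays.

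Gene names came from the platform annotation: 34945 named 1 gene, 932 several and 9160 none, and 99.4% of Entrez identifiers matched RefSeq GRCm38.p6. Signals were centred on the median log2 difference of bright probe sets (0.0037), then floored at the 50th percentile of both arrays (178.6). Each gene was represented by its brightest probe set. With 1 array per group no test was made; counts used differences of 0.32, 0.58 and 1 log2. The functions were tested on simulated data. Python 3.11.15, numpy 2.4.6, pandas 2.3.3, statsmodels 0.14.6 and matplotlib 3.10.9 were used.

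The members and lists were chosen with earlier results of these data known. Named were all TRiC, prefoldin, HSP90, mitochondrial, ER and factor genes; elsewhere members past 0.32 log2, the 4 largest differences, the 2 brightest genes and genes with probe sets over 0.4 log2 apart in opposite directions; and up to 3 genes per other list. Further members were named to account for whole groups, after their values were seen. Entries of the lists that are members were counted as members only. Alternatives were other scalings, floors, a pseudocount and other probe set rules.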

Additional observations from a re-analysis of the deposited data

How the results depend on the processing

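No paired analysis was possible because each group has 1 array. The median over all members was 0.02 and came to -0.0001 after quantile normalization and -0.0023 after loess centring. Members higher past 0.32 log2 numbered 1, and 0 after loess centring or with a pseudocount equal to the floor. Members lower past 0.32 log2 numbered 1, but 4 at a 25th percentile floor, 0 at the 75th, 7 with no floor, 0 with the pseudocount and 3 without probe sets whose suffix marks possible reading of several transcripts. Past 1.5-fold lower there were 1 at the 25th percentile floor and 4 with no floor, and past 2-fold lower 2 with no floor; these added genes had signals under the main floor. The type B J protein median of 0.03 became -0.057 at the 25th percentile floor, -0.063 with no floor, -0.057 with the mean over probe sets and 0.15 without suffixed probe sets. The type A median of -0.08 became 0.002 with the mean over probe sets and 0.035 without suffixed ones, where the small heat shock median came to 0.038 and that of the stress factors to -0.12. At the 75th percentile floor under 3 genes were left in those last 3 groups, so no median was taken. Of 680 values of single genes under the alternatives, 669 moved by less than the pooled probe set SD and 11 by more, among them Hspa8 at -0.40 and Xbp1 at -0.21 without suffixed probe sets. The cause was not tested.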

Other observations

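Dnajc19, a J protein of the mitochondrial import motor, had probe sets assigned also to a pseudogene copy and so entered no count. The brightest read 1167 in the double knockout pool and 992.2 in the control pool, a difference of 0.23, and a dimmer one read 278.5 and 276.5 in the same order, a difference of 0.0067. The other one stayed under the floor.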
